A study of Mus musculus with 8 samples.

Results

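The 39 genes described here encode the enzymes of glycolysis, the carriers that move glucose and lactate across the plasma membrane, the kinases that set glycolytic flux, and targets of the hypoxia-inducible factors (HIF). They were chosen by name from the 24921 gene symbols in the counts, and 24 of them had enough reads to be tested. The 8 libraries of poly(A) RNA, 2 for each of 4 groups, all came from the mouse embryonic stem (ES) cell line V6.5, of mixed C57BL/6 and 129 background, for which the labels give growth in 2i medium. In the line with the OCT4-FKBP fusion, which places a degradation tag on OCT4, cells received DMSO or the dTAG compound (dTag9 in the labels) for 24 h. In the line without the fusion (WT), cells were kept in normal LIF or had LIF withdrawn for 5 days. Both DMSO and dTAG libraries carry the fusion, no library comes from WT cells given dTAG, and the labels give neither the number of clones of the tagged line nor whether libraries of a group came from separate cultures. The p-values are therefore set against how far the libraries of a group differ, and that spread could be technical.

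Glycolysis turns glucose into pyruvate in the cytosol, and lactate dehydrogenase turns pyruvate into lactate, which leaves the cell through monocarboxylate transporters. Many steps are served by isozymes from separate genes, which differ in tissue range and regulation. HIF transcription factors are kept low in normoxia by the EGLN prolyl hydroxylases, which mark the HIF alpha subunits for degradation, and when stabilised they raise many genes of glucose uptake and glycolysis. Pluripotent cells are known for high glycolytic activity, and naive and primed states differ in their balance of glycolysis and respiration.

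Between 7221451 and 11447468 reads per library were assigned to genes, and levels are given in CPM, reads scaled to a common library size after TMM normalization. The deposited counts are per RefSeq accession, and 42.5% of counted plus ambiguous reads were ambiguous and assigned to no accession. Genes with several accessions, 23 of the 39, are thus read mainly through sequence that tells their accessions apart, and their level is not that of the gene. A change in which accession such a gene uses could also show as a change of its count, and this was not tested. Of 12 ES cell markers, Nanog had 0 reads and Esrrb 1 read in all, while the 12 summed to 8070 to 8114 CPM in WT with LIF, 7406 to 7451 CPM with DMSO, 2459 to 2482 CPM with dTAG and 2381 to 2422 CPM without LIF. Tfcp2l1 made the largest part of the first sums (3205 and 3152 CPM with LIF), and not every marker fell without LIF: Tdgf1 rose 1.60-fold (edgeR adjusted p = 2.2e-10) and Utf1 4.24-fold (edgeR adjusted p = 5.3e-19). In these bulk samples, fewer cells of a type and less RNA per cell cannot be told apart. The degradation acts on OCT4 protein, which was not measured.

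OCT4 degradation and LIF withdrawal changed these genes in different combinations. The glucose transporter genes Slc2a1 and Slc2a3 rose in both comparisons and the hexokinase gene Hk2 and the phosphofructokinase gene Pfkp fell in both. Without LIF, the enzyme genes Tpi1, Pgk1, Pgam1 and Pkm and the HIF targets Bnip3, Egln1 and Egln3 also rose. The enzyme genes Hk1, Gpi1 and Gapdh and the HIF targets Ero1a and Ndrg1 fell without LIF. Aldoa, Pfkl and Eno1 and the HIF targets Car9 and P4ha1 were not called there. With dTAG, 4 of the 24 tested genes rose and 8 fell at an adjusted p under 0.05 in edgeR's quasi-likelihood test, 50% of them beside 40.5% of all 10311 tested genes, of which 20.1% rose and 20.3% fell. Without LIF, 12 rose and 7 fell, 79.2% beside 68.4% of all tested genes, of which 34.0% rose and 34.4% fell. The 7 that fell became 4 when replicate 2 of either WT group was left out, and 5 when any other single library was. Both shares are close to those of all genes. The median log2 fold change of the tested members was -0.10 with dTAG (0 over all genes) and 0.33 without LIF (-0.02 over all genes). The groups did not overlap for 17 of the 24 genes with dTAG, beside 70.2% of all tested genes, and for 20 of the 24 without LIF, beside 81.5%. Only 18 of the 24 reached the read minimum of the filter in all 8 libraries, and Pfkl, Gapdh, Pdk1 and P4ha1 reached it in both libraries of 1 group at most, so counts over the tested genes are no measure of the whole list. Among those 18, 4 rose and 7 fell with dTAG, and 11 rose and 5 fell without LIF.

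**Figure D1:**
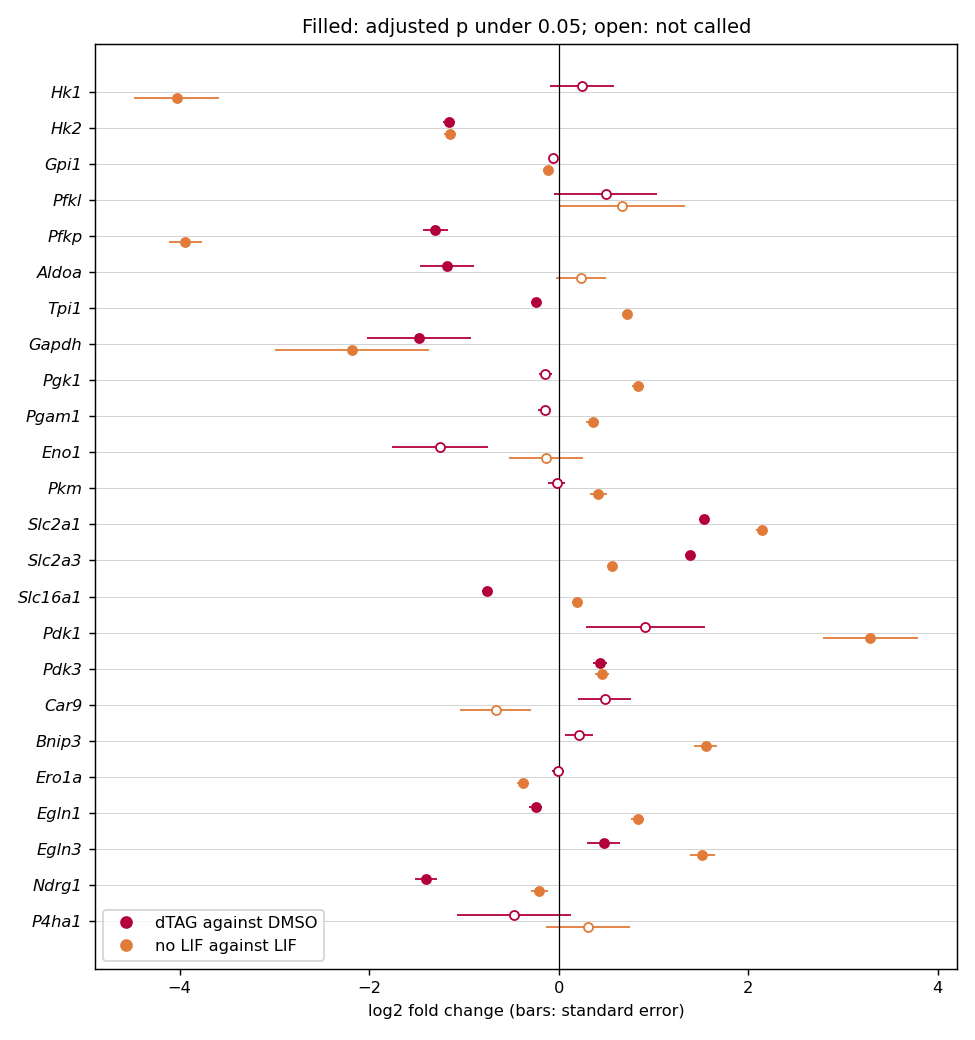
Log2 fold changes of the 24 tested genes with dTAG against DMSO (red) and without LIF against LIF (orange), from edgeR. Bars are 1 standard error, derived from the F statistic of the test, and filled points passed an adjusted p of 0.05. Slc2a1 and Slc2a3 lie right of 0 in both comparisons, Hk2 and Pfkp left of 0 in both, and Tpi1, Slc16a1 and Egln1 on opposite sides.

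Slc2a1, Pgk1, Bnip3 and Egln1 were among the genes that rose without LIF, and the 250 bases upstream of their starts are shown because they hold the core of the hypoxia response element, the sequence that HIF binds. They come from RefSeq's promoters of GRCm38.p6, a later build than the mm9 of the counts, and read along the gene's strand. Capitals mark ACGTG or GCGTG on either strand, so that CACGT and CACGC are matches on the opposite strand.
Slc2a1, chr4:119108495-119108744, + strand: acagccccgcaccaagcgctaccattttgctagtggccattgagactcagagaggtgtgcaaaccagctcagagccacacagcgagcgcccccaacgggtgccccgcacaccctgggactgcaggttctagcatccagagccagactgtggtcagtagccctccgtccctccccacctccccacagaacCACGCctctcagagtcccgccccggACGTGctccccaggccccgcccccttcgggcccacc
Pgk1, chrX:106186850-106187099, + strand: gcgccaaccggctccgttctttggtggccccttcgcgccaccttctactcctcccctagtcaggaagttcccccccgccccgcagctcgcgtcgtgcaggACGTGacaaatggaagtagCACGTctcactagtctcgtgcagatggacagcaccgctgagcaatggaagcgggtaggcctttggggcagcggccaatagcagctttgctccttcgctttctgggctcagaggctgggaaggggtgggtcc
Bnip3, chr7:138909507-138909756, - strand: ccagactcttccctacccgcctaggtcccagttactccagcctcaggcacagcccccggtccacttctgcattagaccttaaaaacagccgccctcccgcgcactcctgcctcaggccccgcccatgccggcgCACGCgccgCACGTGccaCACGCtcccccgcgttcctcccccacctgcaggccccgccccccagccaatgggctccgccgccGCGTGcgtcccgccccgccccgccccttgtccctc
Egln1, chr8:124949255-124949504, - strand: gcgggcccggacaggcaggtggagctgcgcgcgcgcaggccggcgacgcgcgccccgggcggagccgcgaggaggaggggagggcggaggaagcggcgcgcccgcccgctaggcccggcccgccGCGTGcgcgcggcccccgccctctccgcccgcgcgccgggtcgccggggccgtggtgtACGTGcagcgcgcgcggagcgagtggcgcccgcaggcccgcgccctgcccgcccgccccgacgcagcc
Slc2a1, Pgk1 and Egln1 each held 2 matches here and Bnip3 held 5, of which a pair overlap in CACGTG, the E-box that MYC and related factors bind. In the whole windows of 300 bases, a match stood in at least 1 window of 34 of the 37 members with an entry (91.9%), beside 46.7% of all genes with an entry. Among genes tested for expression these shares were 20 of 22 members (90.9%) and 65.9% of all. Gpi1 and Tpi1 were the 2 tested members with an entry and no match. Members that fell without LIF also held matches in these windows, 2 for Hk2, 4 for Pfkp and 3 for Ero1a. A gene with several windows has more chances of a match, and the members were listed partly as HIF targets. Both cores also hold the pair CG, so these shares can vary with the CG content of promoters. No share matched for CG content was computed. By window, 76.8% of the 56 windows of members held a match, beside 43.8% of all 32851 windows. CACGTG stood in windows of 6 of the 37 members (16.2%), beside 8.09% of all genes, and among tested genes in 2 of 22 members (9.09%), beside 11.6% of all. Slc2a3 and Ndrg1 had no entry. A match describes letters in a window, and no binding was measured.

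The facilitative glucose transporters GLUT1 and GLUT3, encoded by Slc2a1 and Slc2a3, bring glucose into the cell. With DMSO, Slc2a1 stood at 306 and 303 CPM, and dTAG took it to 922 and 838 CPM. In WT it stood at 259 and 267 CPM with LIF and at 1179 and 1137 CPM without it. Each library with dTAG or without LIF was above all 4 control libraries. The increase was 2.89-fold with dTAG (log2 fold change 1.53, SE 0.06, edgeR adjusted p = 1.0e-17) and 4.41-fold without LIF (2.14, SE 0.06, edgeR adjusted p = 1.5e-21). The increase without LIF was the larger by 0.61 on the log2 scale (SE 0.08, edgeR adjusted p = 2.6e-07).

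Slc2a3 took the most reads of any member, between 0.492% and 1.97% of all counted reads of a library. Its levels were 7561 and 7333 CPM with DMSO, 20363 and 18542 CPM with dTAG, 4913 and 5150 CPM with LIF, and 7185 and 7648 CPM without LIF. The dTAG libraries stood far above the other 6, and the libraries without LIF overlapped those with DMSO. It rose 2.61-fold with dTAG (log2 fold change 1.39, SE 0.05, edgeR adjusted p = 4.9e-17) and 1.47-fold without LIF (0.56, SE 0.05, edgeR adjusted p = 9.0e-10). Here the increase with dTAG was the larger, with a difference of -0.83 (LIF response minus dTAG response, log2, SE 0.08, edgeR adjusted p = 8.2e-10). Per kilobase of transcript, the level of Slc2a3 in WT with LIF was 1271 ± 42.4 CPM per kb and that of Slc2a1 80.6 ± 1.60 CPM per kb (SD, n = 2). Without LIF these levels were 1873 ± 82.7 and 355 ± 9.15 CPM per kb, and with dTAG 4914 ± 325 and 270 ± 18.2 CPM per kb (SD, n = 2), so GLUT3 transcripts were the more abundant in every group. Both genes have a single accession.

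Slc16a1 encodes MCT1, which carries lactate and pyruvate, and moved in opposite directions. Its level was 480 and 485 CPM with DMSO and 287 and 286 CPM with dTAG, and the groups did not overlap. This was a 1.68-fold decrease (log2 fold change -0.75, SE 0.05, edgeR adjusted p = 7.4e-12). In WT it rose 1.14-fold, from 551 and 572 CPM to 624 and 660 CPM without LIF (edgeR adjusted p = 0.0017). The difference between these log2 fold changes was 0.95 (SE 0.07, edgeR adjusted p = 3.3e-11).

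**Figure D2:**
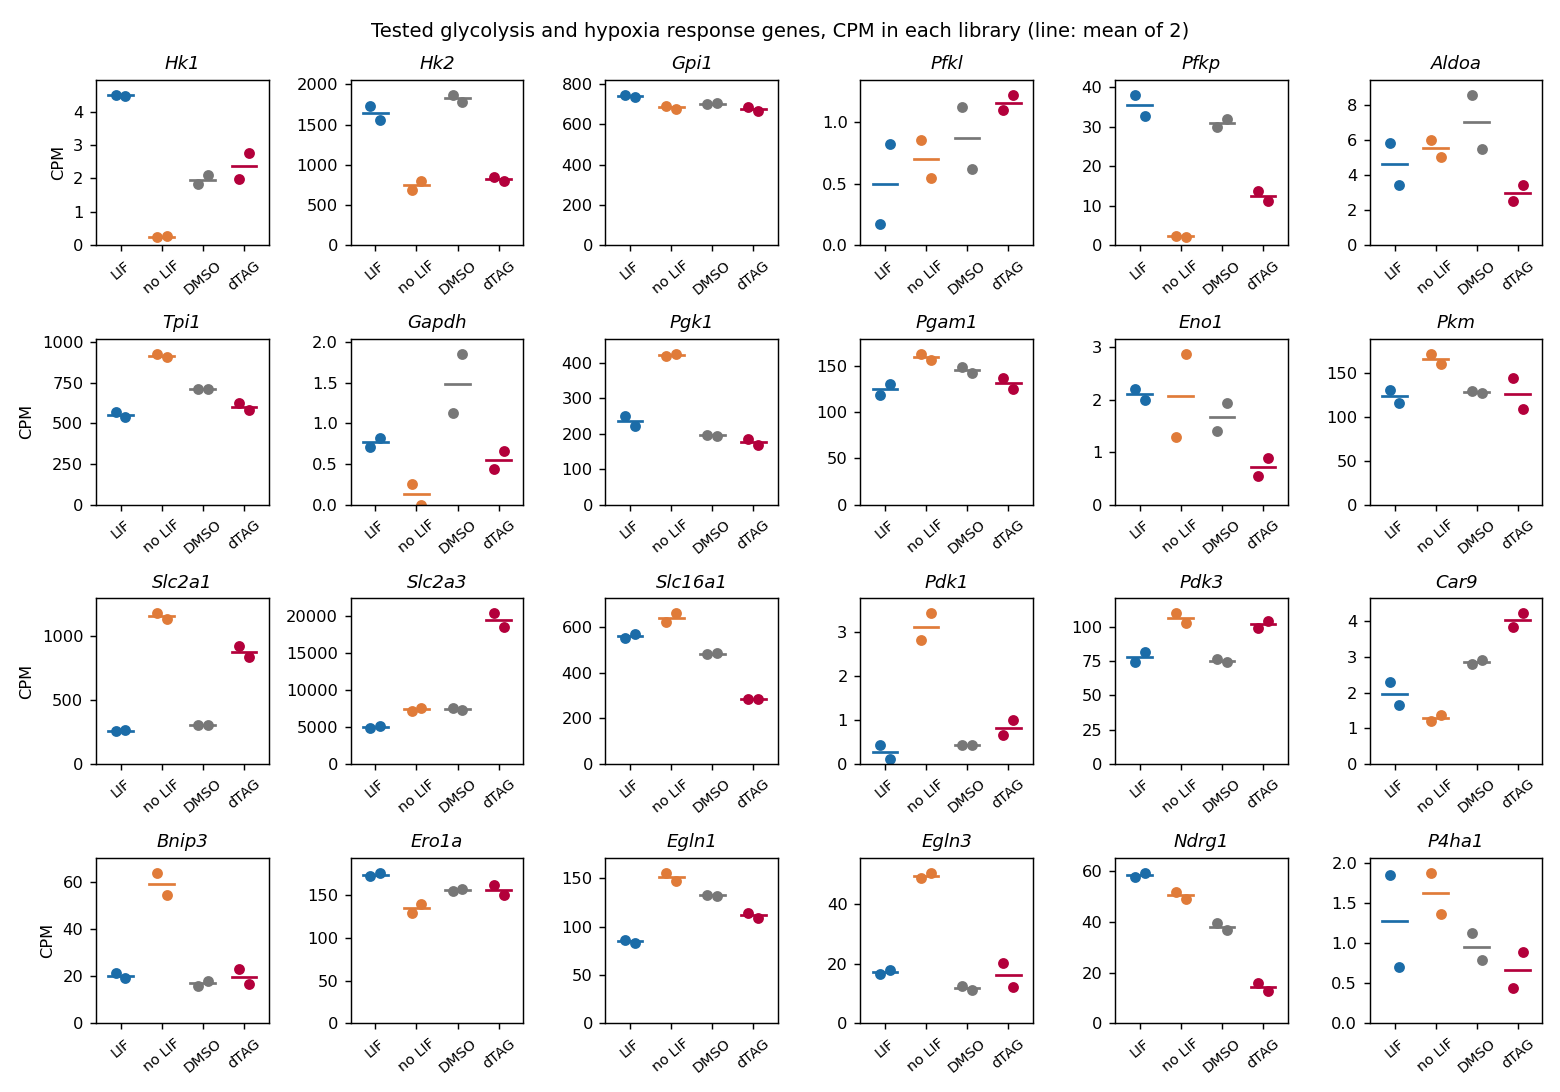
CPM of the 24 tested genes in each library (points) with the mean of the 2 libraries of a group (line), each panel on its own axis from 0. Slc2a1 is high with dTAG and without LIF, Slc2a3 is highest with dTAG, and Hk2 and Pfkp are low with dTAG and without LIF.

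Hexokinase traps glucose in the cell as glucose 6-phosphate, and its inducible form is encoded by Hk2. The level of Hk2 was 1869 and 1785 CPM with DMSO and 844 and 796 CPM with dTAG. In WT it was 1730 and 1559 CPM with LIF and 688 and 804 CPM without it. All 4 control libraries were above all 4 others. The decrease was 2.23-fold with dTAG (log2 fold change -1.16, SE 0.06, edgeR adjusted p = 4.7e-14) and 2.21-fold without LIF (-1.14, SE 0.06, edgeR adjusted p = 1.3e-14). The difference between these changes was 0.01 on the log2 scale (SE 0.09, edgeR adjusted p = 0.921).

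Hk1, the gene of the widely expressed hexokinase, was read through 174 reads in all. It stood at 1.82 and 2.11 CPM with DMSO and at 1.97 and 2.77 CPM with dTAG, groups that overlap, and was not called (edgeR adjusted p = 0.601). In WT it was at 4.50 and 4.47 CPM with LIF and at 0.256 and 0.273 CPM without it. These are 89 reads against 5, or 17.1 times as many after scaling to library size (exact 95% interval for counting error 7.06 to 53.9) (edgeR adjusted p = 1.2e-08).

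Of the genes for phosphofructokinase, the main control point of the pathway, the platelet-type Pfkp had the most reads. It fell 2.47-fold with dTAG, from 29.9 and 31.9 CPM to 13.8 and 11.3 CPM (log2 fold change -1.30 with SE 0.13, edgeR adjusted p = 5.6e-09). Without LIF it fell 15.3-fold, from 38.0 and 32.7 CPM to 2.39 and 2.18 CPM (-3.94, SE 0.18, edgeR adjusted p = 1.0e-16). Neither pair of groups overlapped, and the difference between the changes was -2.63 (SE 0.24, edgeR adjusted p = 7.4e-10). The liver-type gene Pfkl lay between 0.177 and 1.22 CPM and was called in neither comparison (edgeR adjusted p = 0.506 and 0.386). It had 59 reads in all. With accession-level counting these do not show low expression, and the levels of Pfkl and Pfkp cannot be compared. Gpi1, whose enzyme turns glucose 6-phosphate into fructose 6-phosphate, stayed between 667 and 746 CPM in all 8 libraries. Its 1.08-fold decrease without LIF passed the threshold (edgeR adjusted p = 0.0459) but not under DESeq2 (adjusted p = 0.252).

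Aldoa encodes aldolase A, which splits fructose bisphosphate into triose phosphates. It stood at 8.56 and 5.46 CPM with DMSO and at 2.52 and 3.44 CPM with dTAG, without overlap, and fell 2.26-fold (log2 fold change -1.18, SE 0.29, edgeR adjusted p = 0.00164). In WT, 5.83 and 3.41 CPM with LIF overlapped 5.98 and 5.05 CPM without it (edgeR adjusted p = 0.443). Of the 379 reads of Aldoa, 337 lay on 1 of its 3 accessions, with 50 and 60 reads with DMSO and 15 and 27 with dTAG. Another, with 38 reads in all, had 10 and 2 with DMSO and 8 and 3 with dTAG. The decrease with dTAG therefore rests on the first.

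Tpi1 encodes triosephosphate isomerase, and its groups did not overlap in either comparison. It fell 1.18-fold with dTAG, from 712 and 710 CPM to 623 and 582 CPM (log2 fold change -0.24 with SE 0.05, edgeR adjusted p = 6.0e-04). It rose 1.65-fold without LIF, from 571 and 538 CPM to 926 and 908 CPM (0.73, SE 0.05, edgeR adjusted p = 3.1e-12). The difference between the changes was 0.96 (SE 0.07, edgeR adjusted p = 2.6e-11).

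Phosphoglycerate kinase, encoded by Pgk1, makes the first ATP of the pathway. Pgk1 rose 1.79-fold without LIF, from 250 and 221 CPM to 419 and 424 CPM (log2 fold change 0.84 with SE 0.06, edgeR adjusted p = 4.5e-12). With dTAG its levels of 186 and 167 CPM lay below the 196 and 194 CPM with DMSO, but the change was not called (edgeR adjusted p = 0.0891). Pgam1, for phosphoglycerate mutase, lay between 119 and 163 CPM and rose 1.28-fold without LIF (edgeR adjusted p = 3.5e-05).

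Gapdh, for glyceraldehyde 3-phosphate dehydrogenase, and Eno1, for enolase, are among the most abundant transcripts of most cells, yet had 57 and 123 reads here. Gapdh has 2 accessions as well as processed pseudogenes, and Eno1 has the near-identical copy Eno1b. Reads that were ambiguous between accessions or aligned to several places were set aside in the counting, so these levels are uncertain. What lowered the counts was not tested. Gapdh stood at 1.12 and 1.85 CPM with DMSO, 0.438 and 0.665 CPM with dTAG, 0.706 and 0.823 CPM with LIF, and 0.256 and 0 CPM without LIF. It was called lower with dTAG (29 against 10 reads, ratio after scaling to library size 2.85, exact 95% interval 1.35 to 6.55, edgeR adjusted p = 0.0327) and without LIF (15 against 3 reads, ratio 4.80, interval 1.36 to 25.9, edgeR adjusted p = 0.0206). DESeq2 gave adjusted p-values of 0.252 and 0.0868, and Gapdh had entered the test through the 2 DMSO libraries, where it is highest. Eno1 lay between 0.547 and 2.86 CPM and was called in neither comparison (edgeR adjusted p = 0.0522 and 0.773). With dTAG it was 2.38-fold lower without overlap, and 8 of 13 alternatives called it, among them the fit with no filter (edgeR adjusted p = 0.0335). The limit from processed pseudogenes also applies to Aldoa, Tpi1, Pgk1, Pgam1 and Ldha, which have them too.

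Pyruvate kinase closes the pathway, and its gene Pkm makes the M1 and M2 forms by choosing 1 of 2 mutually exclusive exons, M2 being the form of embryonic and proliferating cells. Pkm lay between 109 and 171 CPM in the 8 libraries. It rose 1.34-fold without LIF, from 123 ± 10.4 to 165 ± 8.26 CPM (SD, n = 2, edgeR adjusted p = 1.2e-04), and was not called with dTAG (128 ± 1.52 against 126 ± 24.5 CPM, SD, n = 2, edgeR adjusted p = 0.892). The exons that tell the forms apart are shown because they define the M1 and M2 accessions, although the M2 accession is also counted through its longer ends. They come from GENCODE M21 transcripts of GRCm38 and are written along the gene's strand. Both are 167 bases long, 103 positions are identical, and capitals mark the positions at which they differ.
Pkm M1 exon, chr9:59675029-59675195, + strand: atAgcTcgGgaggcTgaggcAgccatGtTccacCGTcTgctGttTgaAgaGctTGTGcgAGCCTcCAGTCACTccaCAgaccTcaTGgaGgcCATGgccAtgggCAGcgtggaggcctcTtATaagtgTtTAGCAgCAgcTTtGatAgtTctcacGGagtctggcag
Pkm M2 exon, chr9:59675568-59675734, + strand: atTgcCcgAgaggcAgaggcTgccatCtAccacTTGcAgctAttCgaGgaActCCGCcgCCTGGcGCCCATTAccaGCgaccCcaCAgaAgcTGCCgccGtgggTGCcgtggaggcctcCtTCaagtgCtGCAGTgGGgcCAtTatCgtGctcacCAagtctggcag
Reads of the M1 accession numbered 15 to 36 per library, and those of the M2 accession 905 to 1968. M1 took 1.63% and 1.39% of Pkm reads with DMSO, 1.91% and 2.44% with dTAG, 1.15% and 1.93% with LIF, and 1.80% and 2.05% without LIF. The exact 95% intervals run from 0.670% to 1.83% in the lowest library and from 1.57% to 3.61% in the highest. The M2 accession thus took nearly all Pkm reads in each library. Divided by the bases that only 1 accession holds, 167 for M1 and, with its longer ends, 558 for M2, the share of M1 was 3.73% to 7.72%. Reads on the longer ends do not tell the exons apart, so these are shares of accessions and not of the M1 and M2 forms. WT libraries with and without LIF overlapped, and those with DMSO and dTAG did not, but their intervals did. No shift between the 2 accessions was detectable at this depth.

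**Figure D3:**
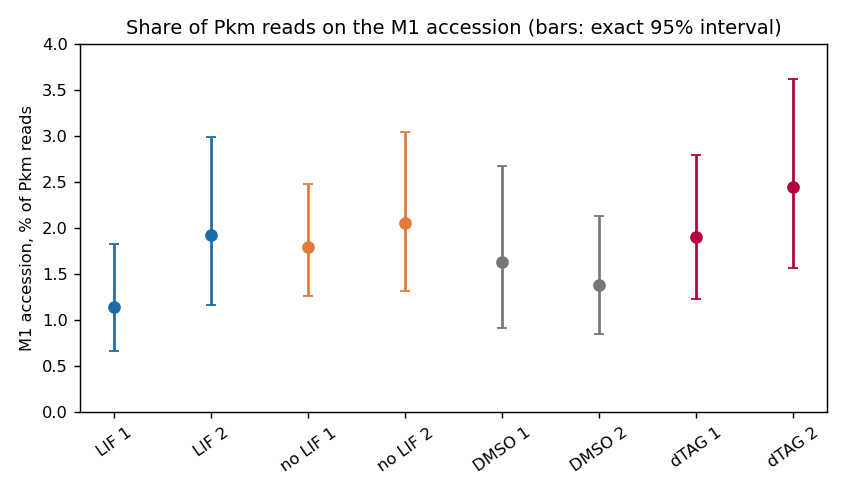
Share of Pkm reads assigned to the M1 accession in each of the 8 libraries, in percent, with exact 95% intervals for counting error. The shares run from 1.15% to 2.44%, and the intervals of all 8 libraries overlap one another.

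Pyruvate dehydrogenase kinases hold pyruvate out of the mitochondrial TCA cycle by phosphorylating pyruvate dehydrogenase. Pdk3 rose by about the same factor in both comparisons, 1.35-fold with dTAG (75.2 ± 1.28 to 102 ± 3.76 CPM, edgeR adjusted p = 2.9e-05) and 1.37-fold without LIF (77.8 ± 4.77 to 106 ± 5.04 CPM, edgeR adjusted p = 5.0e-06; SD, n = 2). The difference was 0.02 on the log2 scale (SE 0.10, edgeR adjusted p = 0.906). Pdk1, a HIF target, was at 0.441 and 0.118 CPM with LIF and at 2.82 and 3.41 CPM without it. These are 6 against 58 reads, or 10.1 times as many after scaling to library size (exact 95% interval 4.35 to 28.5, edgeR adjusted p = 2.4e-06). Pdk1 reached the filter minimum only in the 2 libraries without LIF, so it entered the test through the group where it is high. With dTAG, Pdk1 stood at 0.657 and 0.998 CPM against 0.421 and 0.440 CPM and was not called (edgeR adjusted p = 0.265).

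Among the HIF targets outside glycolysis, 3 of the 7 tested rose without LIF and 2 fell, and 1 rose and 2 fell with dTAG. These shares, 71.4% and 42.9%, are near the 68.4% and 40.5% of all tested genes. Bnip3, a mitochondrial protein of mitophagy and cell death, rose 2.93-fold without LIF, from 21.3 and 19.2 CPM to 64.0 and 54.4 CPM (log2 fold change 1.55 with SE 0.12, edgeR adjusted p = 1.3e-11). With dTAG its 23.2 and 16.6 CPM overlapped the 15.9 and 18.1 CPM with DMSO (edgeR adjusted p = 0.262). The difference between the changes was 1.34 (SE 0.19, edgeR adjusted p = 1.5e-06).

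Egln1 and Egln3 encode the prolyl hydroxylases PHD2 and PHD3, sensors of oxygen that are themselves HIF targets. Egln1 rose 1.78-fold without LIF, from 86.4 and 83.5 CPM to 156 and 147 CPM (log2 fold change 0.83 with SE 0.07, edgeR adjusted p = 1.7e-11). It fell 1.18-fold with dTAG, from 133 and 132 CPM to 114 and 109 CPM (-0.24, SE 0.07, edgeR adjusted p = 0.00367), a call that was lost without dTAG replicate 2 (adjusted p = 0.0671). Neither pair of groups overlapped. Egln3 rose 2.86-fold without LIF, from 16.7 and 18.0 CPM to 48.7 and 50.5 CPM (1.52, SE 0.14, edgeR adjusted p = 2.0e-10). With dTAG it was called higher at 20.4 and 12.2 CPM against 12.5 and 11.2 CPM (0.48, SE 0.17, edgeR adjusted p = 0.0304), but the groups overlap and 1 library decides the call. Without dTAG replicate 1 the log2 fold change was 0.05 (edgeR adjusted p = 0.876), and without dTAG replicate 2 it was 0.79.

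Ndrg1, a stress-response gene linked to differentiation, fell 2.64-fold with dTAG, from 39.4 and 36.6 CPM to 15.8 and 12.9 CPM (log2 fold change -1.40 with SE 0.12, edgeR adjusted p = 1.4e-10). Without LIF it went from 57.4 and 59.2 CPM to 51.7 and 49.1 CPM, a 1.15-fold decrease (edgeR adjusted p = 0.0464) that was not called with DESeq2 (adjusted p = 0.28). Ero1a, listed as Ero1l, encodes an oxidase of the endoplasmic reticulum. It lay between 129 and 176 CPM and fell 1.30-fold without LIF (edgeR adjusted p = 9.7e-06), with no call under dTAG (edgeR adjusted p = 0.971). Car9, for the membrane carbonic anhydrase that is a classic HIF marker, lay between 1.20 and 4.21 CPM and was called in neither comparison (edgeR adjusted p = 0.176 and 0.116). P4ha1, a collagen prolyl hydroxylase subunit, lay between 0.438 and 1.88 CPM and was likewise not called (edgeR adjusted p = 0.567 and 0.557).

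Read side by side, the responses to dTAG and to LIF withdrawal differed for most members. The test of the difference called 12 members with a higher log2 fold change without LIF and 5 with a lower one, 70.8% of the 24 beside 55.0% of all tested genes (26.4% higher and 28.6% lower). The median difference was 0.56 over the members and -0.02 over all tested genes. Slc2a1, Slc2a3, Pdk3 and Egln3 were called higher in both comparisons, and Hk2, Pfkp, Gapdh and Ndrg1 lower in both. Tpi1, Slc16a1 and Egln1 fell with dTAG and rose without LIF, and no member did the reverse. Duration, cell line and agent differ along with the loss of OCT4 or LIF and their parts cannot be told apart.

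Markers of other cells also moved between the WT groups. The 10 fibroblast and smooth muscle markers summed to 11.5 to 11.7 CPM with LIF and to 870 to 912 CPM without it, with 3 of the 10 (Postn, Dcn and Pdgfrb) at 0 reads without LIF. Tagln (763 and 725 CPM) and Acta2 (128 and 125 CPM) made most of the sum without LIF, while Thy1 was not called (edgeR adjusted p = 0.447). The 10 trophoblast markers summed to 26.0 to 27.2 CPM with LIF and to 1400 to 1506 CPM without it, with Gata3 and Elf5 at 0. Krt8 (521 and 477 CPM) and Krt18 (878 and 823 CPM) made most of it, Cdx2 stood at 2.73 CPM or less, and Tfap2c fell 4.98-fold (edgeR adjusted p = 1.0e-05). In the tagged line the trophoblast markers went from 61.6 to 63.7 CPM with DMSO to 262 to 281 CPM with dTAG, of which Cdx2 made 192 and 169 CPM. Their part in the changes of the members was not tested.

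Isozyme balance was read as the log2 ratio of reads within a library, for the 3 of 14 pairs in which each gene had at least 100 reads. For Hk2 over Hk1 the log2 ratio was 9.95 and 9.69 with DMSO and 8.70 and 8.14 with dTAG, and 8.57 and 8.43 with LIF and 11.17 and 11.20 without it. The ratio thus fell by 1.40 with dTAG and rose by 2.69 without LIF, where Hk1 had 5 reads. Slc2a3 over Slc2a1 stood at 4.24 and 4.27 with LIF and 2.61 and 2.75 without it, a decrease of 2.99-fold in favour of Slc2a1. With dTAG the same log2 ratio was 4.47 in both libraries against 4.63 and 4.60 with DMSO, a decrease of 1.11-fold. Egln3 over Egln1 rose by 0.66 on the log2 scale with dTAG and by 0.68 without LIF. With single libraries left out the first value ranged from 0.32 to 0.99 and the second from 0.60 to 0.76, and the dTAG libraries stood at -2.49 and -3.16. None of these groups overlapped, and each exact two-sided permutation test gave p = 0.33, the smallest that 2 against 2 libraries allow. Ratios of reads depend on length and on accession structure, so changes are read here and not levels. A change in accession use could alter these changes too for Hk1, where 151 of 174 reads lay on 1 of its 2 accessions.

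**Figure D4:**
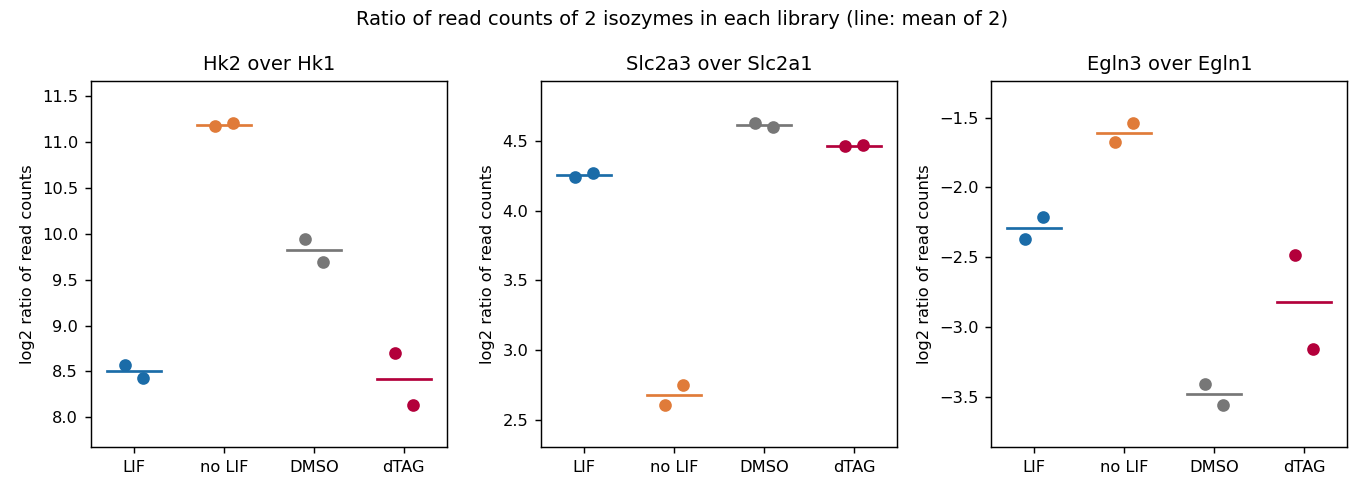
Log2 ratio of reads of 2 isozymes within each library (points) for Hk2 over Hk1, Slc2a3 over Slc2a1 and Egln3 over Egln1, by group, with the mean of 2 libraries as a line and an axis of its own in each panel. Hk2 over Hk1 is lower with dTAG and higher without LIF, and Slc2a3 over Slc2a1 drops from 4.24 and 4.27 with LIF to 2.61 and 2.75 without it.

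The tagged line in DMSO already differed from WT with LIF at some of these genes. Of the 24, 5 were higher and 5 lower in the tagged line, 41.7% beside 40.6% of all tested genes (18.5% higher and 22.1% lower), and the groups did not overlap for 18, beside 67.5% of all genes. Slc2a3 was 1.48-fold higher in the tagged line (edgeR adjusted p = 6.1e-09) and Egln1 1.56-fold higher (edgeR adjusted p = 2.7e-08). Ndrg1 was 1.54-fold lower (edgeR adjusted p = 7.0e-06), and Hk1 2.24-fold lower (edgeR adjusted p = 0.00252, but 0.0701 with DESeq2). Tag, clone, DMSO and culture cannot be told apart here, and these libraries are also the controls of the other comparisons.

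The other 15 members had too few reads for a test. Eno2, Ldhb and Vegfa had 0 reads in all 8 libraries, which allows up to 3 reads each. Ldha, whose product is the main lactate dehydrogenase of proliferating cells, had 37 reads, and Pdk2 34, Mxi1 29, P4ha2 23, Kdm3a 23 and Eno3 16. Aldoc had 9 reads, Slc16a3 6, Higd1a 6, Pfkfb4 5, Pfkm 3 and Pfkfb3 2. Nothing can be read about these genes from such totals, and the accession-level counting means that few reads do not show low expression.

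Other genes around the pathway were followed in 6 lists, whose medians stand beside 0 with dTAG and -0.02 without LIF over all tested genes. Of all tested genes, 40.5% were called with dTAG (20.1% higher and 20.3% lower) and 68.4% without LIF (34.0% and 34.4%). Of 14 tested HIF pathway regulators, 4 rose and 3 fell with dTAG, and 5 rose and 6 fell without LIF, with a median log2 fold change of 0.01 and -0.26. The shares called were 50% and 78.6%, beside 40.5% and 68.4% of all genes. Epas1, which encodes a HIF alpha subunit, fell 4.08-fold with dTAG (edgeR adjusted p = 2e-14) and 1.60-fold without LIF (edgeR adjusted p = 8.1e-07). Hif1a, for another HIF alpha subunit, had only 59 reads in all and was called in neither comparison (edgeR adjusted p = 0.338 and 0.955). Cited2, an inhibitor of HIF that competes for its coactivator, fell 1.79-fold with dTAG (edgeR adjusted p = 5.5e-08) and rose 3.36-fold without LIF (edgeR adjusted p = 2.9e-17). Arnt2, a partner subunit of HIF, rose 4.74-fold without LIF (edgeR adjusted p = 2.6e-14) and fell 1.44-fold with dTAG (edgeR adjusted p = 0.0374). Arnt, a related partner subunit, went the other way without LIF and fell 2.09-fold (edgeR adjusted p = 0.00179).

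Of 24 tested further HIF targets, 4 rose and 9 fell with dTAG and 13 rose and 10 fell without LIF, with a median log2 fold change of -0.10 and 0.51. The shares called were 54.2% and 95.8%, beside 40.5% and 68.4% of all genes. Stc2, a secreted glycoprotein, fell with dTAG from 14.6 and 12.4 CPM to 0.985 and 0.444 CPM (edgeR adjusted p = 2.6e-12). Without LIF it fell 1.45-fold (edgeR adjusted p = 3.1e-04). Loxl2, a collagen-crosslinking oxidase, rose without LIF from 0.530 and 0.706 CPM to 72.0 and 76.4 CPM (edgeR adjusted p = 4.6e-20) and was called lower with dTAG, at 0.766 and 0.111 CPM against 0.983 and 1.67 CPM (edgeR adjusted p = 0.0187). Loxl2 reached the filter minimum in both libraries of a group only without LIF, so it entered the test through the group where it is high. Pgm1, phosphoglucomutase, rose 5.56-fold without LIF (edgeR adjusted p = 3.8e-16) and 1.81-fold with dTAG (edgeR adjusted p = 7.1e-05).

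Of 14 other glycolytic isozymes and side branches, 3 rose and 3 fell with dTAG and 4 rose and 7 fell without LIF, with a median log2 fold change of -0.12 and -1.09. The shares called, 42.9% and 78.6%, stand beside 40.5% and 68.4% of all genes. Pck2, the mitochondrial enzyme that makes phosphoenolpyruvate, fell 4.12-fold with dTAG (edgeR adjusted p = 2e-16) and 3.50-fold without LIF (edgeR adjusted p = 6.4e-18). Fbp1, a gluconeogenic bisphosphatase, fell 4.42-fold with dTAG (edgeR adjusted p = 0.00037). Fbp2, its muscle-type relative, fell 27.6-fold without LIF (edgeR adjusted p = 2e-17), and Hkdc1, a further hexokinase gene, was at 0.0883 and 0.118 CPM with LIF and at 2.39 and 2.86 CPM without it. Hkdc1 and Fbp1 reached the filter minimum in both libraries of a group only where they were high, without LIF and with DMSO, so they entered the test through that group. In the pentose phosphate pathway 4 of 8 rose and 1 fell with dTAG, and 1 rose and 5 fell without LIF (median log2 fold change 0.12 and -0.58). This is 62.5% and 75% called, beside 40.5% and 68.4% of all genes. Prps1 fell 1.60-fold with dTAG (edgeR adjusted p = 1.8e-10) and 1.67-fold without LIF (edgeR adjusted p = 7.4e-12). Shpk fell 4.43-fold without LIF (edgeR adjusted p = 1.2e-05). Rbks, with 110 reads in all, rose in both (edgeR adjusted p = 0.0315 and 0.0223). It stood at 0.562 and 0.880 CPM with DMSO and 1.75 and 2.00 CPM with dTAG. In WT it stood at 1.32 and 0.588 CPM with LIF and 2.48 and 1.77 CPM without it. Both libraries of a group reached the filter minimum only with dTAG and without LIF, the groups where Rbks was high.

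Of 24 genes of pyruvate entry and the TCA cycle, 4 rose and 5 fell with dTAG, and 4 rose and 16 fell without LIF, with a median log2 fold change of -0.05 and -0.39. The shares called were 37.5% and 83.3%, beside 40.5% and 68.4% of all genes. Pdp2, the phosphatase that opposes the PDK kinases, fell 4.30-fold without LIF (edgeR adjusted p = 1.5e-20) and rose 1.34-fold with dTAG (edgeR adjusted p = 1.7e-07). Pdk4, a further PDK kinase, fell 1.51-fold with dTAG (edgeR adjusted p = 0.0171) and 2.47-fold without LIF (edgeR adjusted p = 1.2e-08). Got1, of the malate-aspartate shuttle, fell 1.55-fold with dTAG (edgeR adjusted p = 4.3e-10) and 1.83-fold without LIF (edgeR adjusted p = 1.1e-13). Of 9 MYC and MondoA regulators, 5 rose and 1 fell with dTAG, and 3 rose and 2 fell without LIF (median log2 fold change 0.60 and -0.03). The shares called were 66.7% and 55.6%, beside 40.5% and 68.4% of all genes. Myc itself had 0 reads and was not tested. Mycn, a MYC family factor, fell 2.96-fold with dTAG (edgeR adjusted p = 4e-16), and Mxd4, a MYC antagonist, rose 6.04-fold with dTAG (edgeR adjusted p = 5.3e-08) and 2.46-fold without LIF (edgeR adjusted p = 0.00302). Txnip, which restrains glucose uptake, fell 2.45-fold without LIF, from 6.97 and 5.53 CPM to 2.48 and 2.73 CPM (edgeR adjusted p = 4.2e-05). It rose 2.41-fold with dTAG, from 4.21 and 4.14 CPM to 10.3 and 9.87 CPM (edgeR adjusted p = 1.6e-05), and the difference between the changes was -2.56 (SE 0.32, edgeR adjusted p = 1.7e-07).

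**Figure D5:**
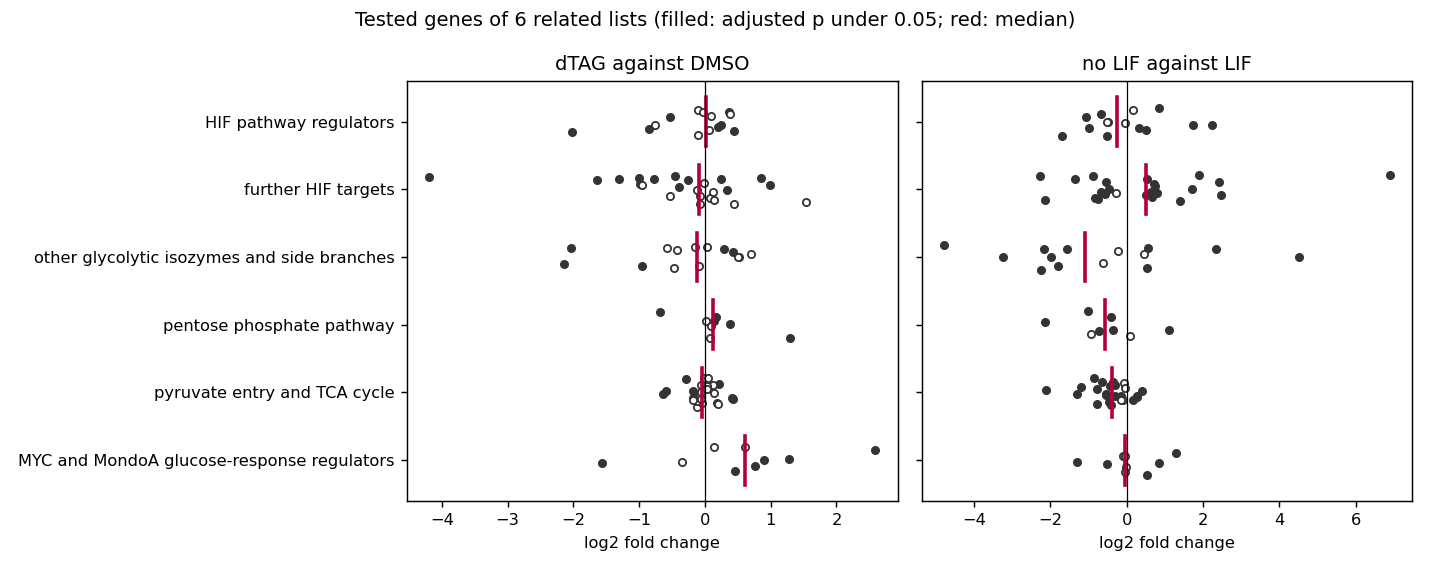
Log2 fold change of each tested gene of the 6 related lists (points, filled at an adjusted p under 0.05) with dTAG against DMSO (left panel) and without LIF against LIF (right panel), with the median of each list as a red line. Without LIF the median of the TCA cycle list lies at -0.39 and that of the further HIF targets at 0.51.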

How the data were processed

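RNA from 8 libraries was analysed in the 4 groups the labels give. The deposited files hold raw read counts per RefSeq accession; HISAT2 and HTSeq and the build mm9 are named per the submitters' processing notes. The kit is stranded per the labels' protocols, but whether HTSeq counted by strand is not stated. Of 41565 accessions, 41325 were named through a RefSeq gene table and 126 through GENCODE, and 114 had no symbol. Counts were summed per symbol, and rows of unassigned reads were left out. Ambiguous reads were 42.5% of counted plus ambiguous reads, and the 8 library totals lay between 7221451 and 11447468.

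One edgeR 4.0.16 quasi-likelihood fit (R 4.3.3, TMM scaling) over the 4 groups, with 4 residual degrees of freedom, gave all comparisons, the difference between the responses included. Genes needed about 1.07 CPM (10 reads) in 2 libraries, which left 10311. P-values were adjusted by Benjamini-Hochberg over all of them, with calls at 0.05. The fit was checked on simulated counts in which a small set of genes changed, in the dTAG group only. Many more genes were called in the data, so that check does not cover the scaling under such wide change. Isozyme ratios used 0.5 added to each count and an exact permutation test. Members called at an absolute log2 fold change of 0.58 or more are given by library, as are the genes of isozyme pairs whose ratio moved, and of each related list the 2 called genes of largest change per comparison are named. Txnip's other values were added after they were seen. So were Arnt, Hif1a, Myc and the other comparison of Epas1, Arnt2, Stc2, Pgm1, Pck2, Prps1, Pdp2 and Got1. DESeq2 1.42.0, other filters, accession choices, a replicate block and left-out libraries were alternatives. The members and all lists were chosen with earlier results of these data known. Exact intervals treat reads as independent, so they cover counting error only and not the spread between libraries. The reads carry no molecular identifiers, so duplicates could not be set aside.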

Additional observations from a re-analysis of the deposited data

Results flagged for a closer look

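For 17 members the change without LIF differed from the change with dTAG in edgeR's test of the difference itself. Each value below is the log2 fold change without LIF minus that with dTAG. Among the enzymes of glycolysis the difference was -4.27 for Hk1, -2.63 for Pfkp, 1.41 for Aldoa, 0.96 for Tpi1, 0.98 for Pgk1, 0.51 for Pgam1 and 0.44 for Pkm. Among the carriers it was 0.61 for Slc2a1, -0.83 for Slc2a3 and 0.95 for Slc16a1. It was 2.38 for Pdk1, and among the HIF targets -1.15 for Car9, 1.34 for Bnip3, -0.37 for Ero1a, 1.08 for Egln1, 1.04 for Egln3 and 1.20 for Ndrg1. Of these 17 calls, 14 held under every alternative run. That of Pkm was lost without dTAG replicate 2 (0.26, adjusted p = 0.0633). Those of Pdk1 and Car9 were lost with DESeq2 (adjusted p = 0.0829 and 0.206) and without any of several single libraries.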

How the results depend on the processing

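Of the 12 calls with dTAG, 9 held under every alternative run (not Gapdh, Egln1 and Egln3), as did 16 of the 19 without LIF (not Gpi1, Gapdh and Ndrg1) and 6 of the 10 between the tagged line and WT (not Hk1, Pgam1, Slc16a1 and Egln3). Calls were also gained with dTAG under some alternatives, in 8 of 13 for Eno1, 4 of 14 for Pgk1, 2 of 14 for Pgam1, and 1 each for Pkm (without dTAG replicate 1) and Bnip3 (without dTAG replicate 2). The number of members lower without LIF, 7, was 4 with DESeq2, 4 with only the libraries of the comparison, 4 with only genes of 1 accession, and 4 to 5 with single libraries left out. Members with a lower response without LIF than with dTAG numbered 5, and 3 with a filter of 5 CPM or with only genes of 1 accession. All genes lower in the tagged line numbered 2283, but 1400 with DESeq2 and 1462 to 2226 with single libraries left out, the lowest without DMSO replicate 2. The log2 ratio of Hk2 over Hk1 rose by 2.48 without LIF when 1 was added to each count. Changes of sign, listed next, all fell on values that were not called. With dTAG, the log2 fold change of Ero1a was 0.0026 with DESeq2 and 0.0030 with no filter. With single libraries left out it ranged from -0.068 to 0.049 for Ero1a, -0.021 to 0.47 for Hk1, -0.24 to 0.16 for Pkm and -0.051 to 0.43 for Bnip3. Without LIF the ranges were -0.18 to 2.00 for Pfkl, -0.031 to 0.70 for Aldoa, -0.70 to 0.44 for Eno1 and -0.12 to 1.22 for P4ha1. The difference between the responses was -0.012 for Hk2 with no filter, -0.0027 with only genes of 1 accession and -0.085 to 0.13 with single libraries left out, and for Pdk3 it was -0.0034 with no filter and -0.051 to 0.099. The cause of these shifts was not tested. Replicate numbers are shared between groups, but same-numbered libraries did not deviate together (r from -0.01 to 0.05). This does not show whether they were prepared together. With the replicate block the members called were again 4 higher and 8 lower with dTAG, 12 and 7 without LIF, 12 and 5 for the difference, and 5 and 5 for the tagged line. Counting only members at the filter minimum in all 8 libraries was chosen after seeing the data.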
